A study of Zea mays with 14 samples.

Results

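H3K27me3 and H3K4me3 have opposite reputations in plant chromatin. H3K27me3 is laid down by Polycomb repressive complexes and marks genes kept silent in a tissue, whereas H3K4me3 is deposited by Trithorax-type methyltransferases at the start of genes and usually accompanies transcription. Where both are found in a sample, the region is often called bivalent, a term first used for developmental genes in animal stem cells. H3K9ac is an acetylation found with H3K4me3 at active gene starts, and H3K36me3 marks the body of transcribed genes. In Arabidopsis, H3K36me3 and H3K27me3 are known to antagonise each other.

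The regions described here are the shoot H3K27me3 peaks that overlapped a shoot H3K4me3 peak by 1 bp or more on the same clone, called double-marked peaks here. They numbered 4935 of the 14592 H3K27me3 peaks of shoot, or 33.8%, and the remaining 9657 are called the other H3K27me3 peaks. They were chosen by the measured overlap itself, so the overlap and what follows from it are given as a description. Seedlings of the maize inbred line B73 were grown in a soil mixture and taken at 14 days, and shoots and roots were separated. Chromatin immunoprecipitation with sequencing was done for H3K4me3, H3K9ac, H3K27me3 and H3K36me3 in each organ, DNA methylation was read from fragments cut by McrBC, and mRNA was sequenced. Tissue of 10 seedlings was pooled and 3 immunoprecipitation reactions were combined, per the labels' protocols, so each organ is a mixture of cell types and plants.

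Each assay had 1 library per organ. There is therefore no replicate error, no test was made between organs or marks, and the 95% intervals given (Wilson for shares, order statistics for medians) cover counting error among peaks only. The lists of H3K27me3 and H3K4me3 stem from separate libraries, so an overlap does not show that both marks sat on the same chromosome copy or in the same cell. The deposited lists give a clone, a start and an end for each peak and no score. Positions are those of the sequenced clones. No sequence of these clones was used here, and none is shown. The lists held 48926 H3K4me3, 47604 H3K9ac and 20935 H3K36me3 peaks in shoot, and 39410, 26028 and 27069 in root. H3K27me3 had 6875 peaks in root, fewer than in shoot. The number of reads behind each chromatin list is unknown here, and the part of list size in the organ differences was not tested.

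Double-marked peaks were longer than the other H3K27me3 peaks. Their median length was 620 bp (interval 604 to 637 bp), with quartiles of 364 and 1047 bp and a range from 100 to 6467 bp. The other H3K27me3 peaks had a median of 378 bp (370 to 385 bp), quartiles of 261 and 626 bp and a range from 99 to 5116 bp. By covered length the double-marked peaks made up 44.0% of all H3K27me3 bases of shoot, 3959 kb against 5050 kb in the others. A longer peak has more bases on which to meet another, and the share of H3K27me3 peaks with H3K4me3 went from 18.7% (17.4 to 20.1%) at 201 to 300 bp to 57.6% (55.2 to 60.0%) over 1200 bp. The shortest class broke this course, with 309 of 1272 peaks of up to 200 bp overlapping H3K4me3, or 24.3% (22.0 to 26.7%). These shortest double-marked peaks differed in their other marks too, as given further on.

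**Figure D1:**
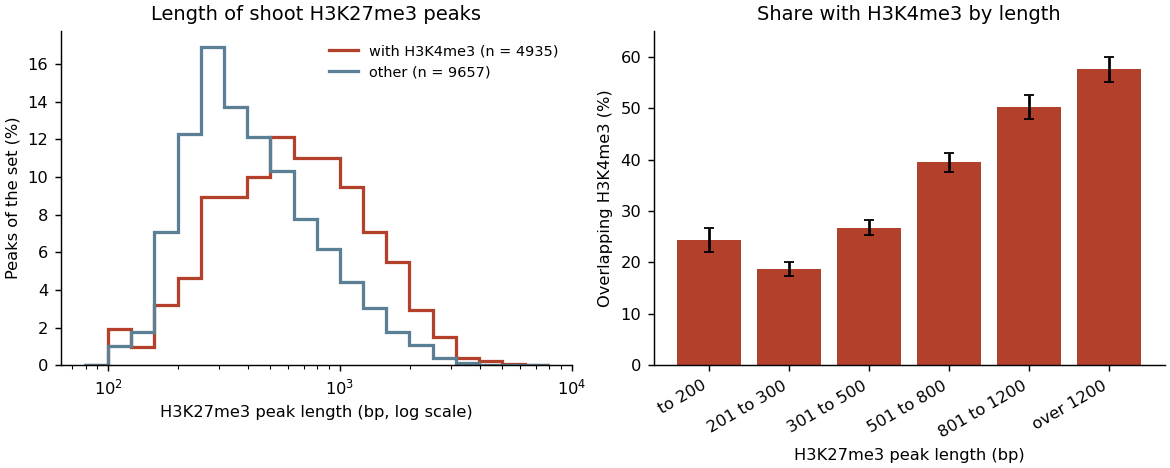
Left, length of shoot H3K27me3 peaks (bp, log scale) as percent of each set, for the double-marked (red) and the other peaks (blue). Right, share of H3K27me3 peaks that overlap H3K4me3 in each length class, with bars for the 95% Wilson interval. The share is lowest at 201 to 300 bp (18.7%) and highest over 1200 bp (57.6%), and the shortest class lies above its neighbour.

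H3K4me3 covered most of a double-marked peak, and both marks were centred close to each other. The median overlap was 491 bp (479 to 504 bp), with quartiles of 300 and 761 bp and a highest value of 2920 bp. This equalled 93.4% (92.2 to 94.5%) of the H3K27me3 peak in the median, and 4215 peaks, or 85.4%, had at least 50% of their length covered. In all, 2834 kb carried both marks. The centre of the H3K27me3 peak lay a median of 123.5 bp from the centre of its H3K4me3 peak (quartiles 47 and 262 bp). A single H3K4me3 peak was the partner in 4736 cases and a pair of H3K4me3 peaks in 197. The relation was not strictly one to one, since 484 double-marked peaks, or 9.81%, shared an H3K4me3 peak with another, and 120 touched or overlapped the double-marked peak before them.

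The layout took 3 main forms. In 2044 cases, or 41.4% (40.1 to 42.8%), the H3K27me3 peak lay wholly inside H3K4me3, and these were short, with a median of 403 bp within H3K4me3 peaks of 928.5 bp. In 1852 cases, or 37.5%, it crossed 1 edge of the H3K4me3 peak, with medians of 700 and 757.5 bp. In 1019 cases, or 20.6%, the H3K27me3 peak extended around a whole H3K4me3 peak, with medians of 1286 and 691 bp. The remaining 20 lay between a pair of H3K4me3 peaks. Peaks inside H3K4me3 had H3K9ac more often (73.1%, 71.2 to 75%) than those extending around it (51.2%, 48.2 to 54.3%). They had H3K36me3 more often as well (11.9%, 10.6 to 13.4%, against 2.36%, 1.59 to 3.48%), but H3K27me3 in root less often (33.1%, 31.1 to 35.1%, against 41.2%, 38.2 to 44.3%). These forms also differ in the length of the H3K27me3 peak.

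Peaks close to the limit of 1 bp were few on either side of it. The 57 double-marked peaks with 1 to 50 bp of overlap had a median length of 416 bp, and 27 of them had H3K9ac, 1 had H3K36me3, 14 had H3K27me3 in root and 14 had H3K4me3 in root. The 77 other H3K27me3 peaks with a gap under 50 bp to H3K4me3 had a median of 420 bp, and the same counts were 40, 7, 25 and 15. With such counts no difference between the sides can be read for the rarer marks. Most of the other H3K27me3 peaks were far from H3K4me3, with a median gap of 9.59 kb over the 9091 on a clone that had H3K4me3, and 13.4% lay within 1000 bp of it.

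Coverage around the centre of the H3K27me3 peak showed both marks falling off together. H3K4me3 of shoot covered 89.0% of centres of double-marked peaks, a mean of 38.8% at 500 bp to either side, 9.43% at 1000 bp and 1.37% at 2000 bp. H3K27me3 itself covered 32.5%, 8.79% and 1.58% at these distances. H3K9ac was broader, with 60.8% at the centre, 37.3% at 500 bp and 12.2% at 1000 bp. Past the peak, at 2000 bp, each listed histone mark covered a smaller share of double-marked sites than of the other H3K27me3 peaks. Cover over the clones as a whole was not set beside these values. At 2000 bp, H3K9ac covered 2.19% and H3K4me3 1.37%, against 5.69% and 4.40% at the same distance from the other H3K27me3 peaks. H3K27me3 of shoot at 2000 bp was likewise lower around double-marked peaks (1.58%) than around the others (3.4%).

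**Figure D2:**
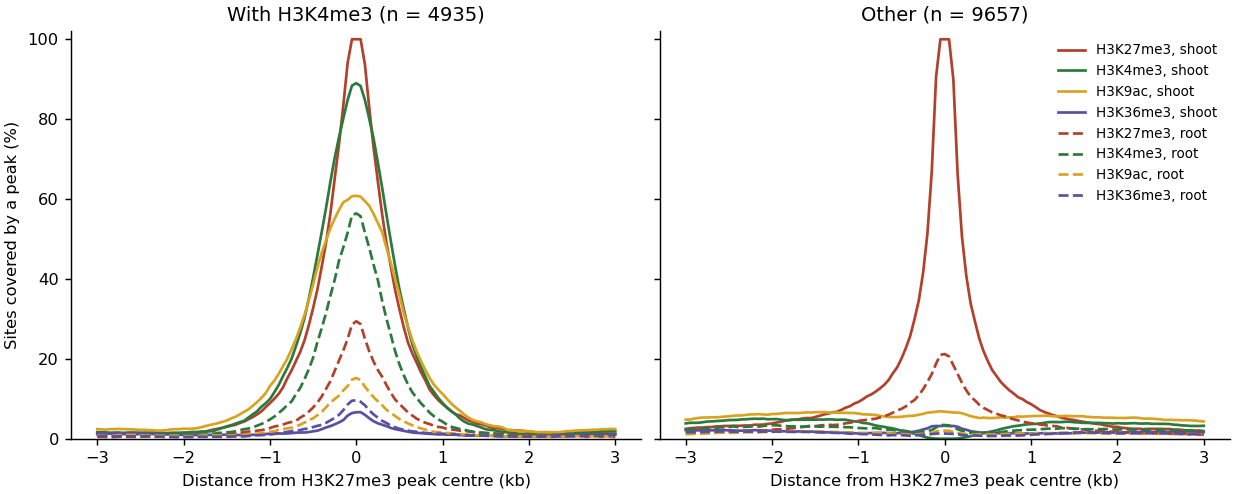
Percent of sites covered by a peak of each list (vertical axis) against the distance from the centre of the shoot H3K27me3 peak in kb, for double-marked peaks (left) and the other H3K27me3 peaks (right). Solid lines are shoot and dashed lines are root. H3K4me3 and H3K27me3 of shoot fall off together on the left, with 38.8% and 32.5% at 500 bp, and H3K4me3 of root reaches 56.4% at the centre.

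H3K9ac was present at most double-marked peaks and H3K36me3 at few. H3K9ac overlapped 3153 of them, or 63.9% (62.5 to 65.2%), against 8.41% (7.87 to 8.98%) of the other H3K27me3 peaks and 27.2% of all H3K27me3 peaks of shoot. Where present it was extensive, covering a median of 549 bp and the whole H3K27me3 peak in 61.8% of cases. The share varied with length, from 57.2% (54.1 to 60.4%) over 1200 bp to 68.4% (65.5 to 71.2%) at 301 to 500 bp. At the other H3K27me3 peaks it went from 5.09% up to 200 bp to 13.4% over 1200 bp. H3K36me3 overlapped 360, or 7.29% (6.60 to 8.05%), against 3.45% (3.10 to 3.83%) of the other peaks and 4.75% of all. Of the double-marked peaks, 2843 (57.6%) had H3K9ac without H3K36me3, 1732 (35.1%) had neither, 310 (6.28%) had both and 50 (1.01%) had H3K36me3 without H3K9ac. Those with both were short, with a median of 297 bp, against 634 bp for H3K9ac without H3K36me3 and 685 bp for neither.

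H3K9ac and H3K4me3 occur together across the whole shoot, so the H3K4me3 peaks themselves give the closer comparison. Shoot H3K4me3 peaks that overlapped H3K27me3 numbered 4870 of 48926, or 9.95%, and had a median length of 793 bp against 874 bp for the 44056 without it. They had H3K9ac in 63.9% of cases (62.5 to 65.2%), below the 83.5% (83.1 to 83.8%) of H3K4me3 peaks without H3K27me3 and the 81.5% of all. The difference in H3K36me3 was wider, with 7.56% (6.85 to 8.33%) against 34.4% (33.9 to 34.8%), and 31.7% over all H3K4me3 peaks. H3K4me3 peaks with H3K27me3 were thus poorer in both of the other marks of active genes.

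This held through most of the length range of H3K4me3. H3K4me3 peaks were divided by length into 4 classes of about equal number. In the longest class, above 1185 bp, H3K36me3 was on 9.13% (7.51 to 11.1%) of those with H3K27me3 and on 54.7% (53.8 to 55.6%) of those without. In the class above 570 and up to 866 bp, the shares were 3.19% (2.37 to 4.28%) and 25.7% (24.9 to 26.5%). The shortest class, up to 570 bp, was the exception, with 12.5% (10.9 to 14.3%) and 11.5% (10.9 to 12.1%). H3K9ac was lower with H3K27me3 in all 4 classes, from 49.2% against 65.5% in the shortest to 76.2% against 90.5% in the longest. Without peaks that overlapped DNA methylation, a comparison added after the data were seen, H3K36me3 was on 4.73% and 34.3% and H3K9ac on 63.1% and 83.5%.

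**Figure D3:**
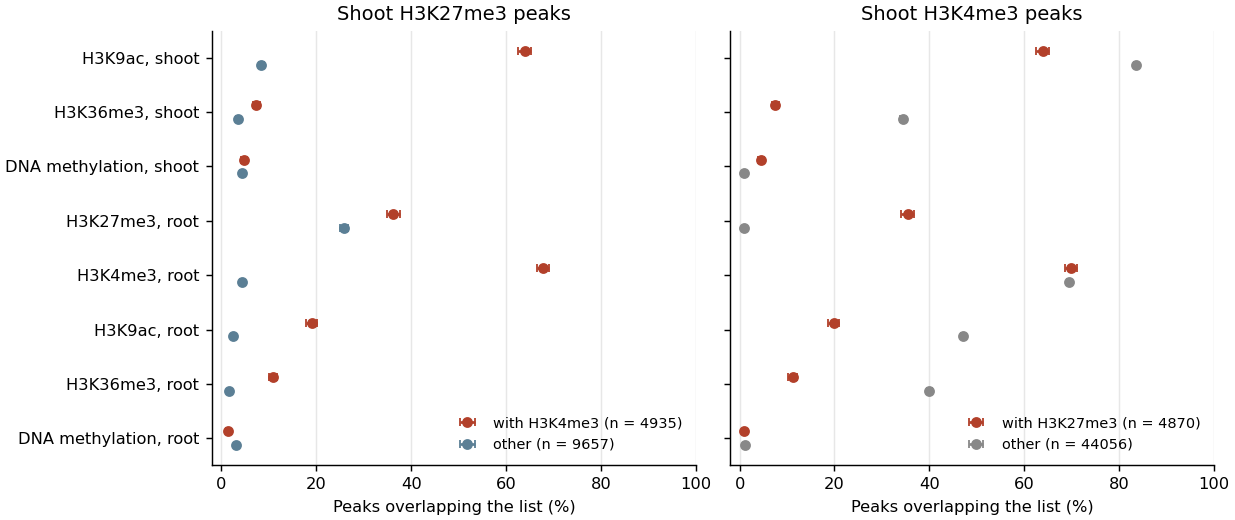
Percent of peaks that overlap each list named on the vertical axis, with 95% Wilson intervals that are often narrower than the point. Left, double-marked peaks (red) against the other shoot H3K27me3 peaks (blue). Right, shoot H3K4me3 peaks with (red) and without H3K27me3 (grey), where H3K36me3 of shoot differs between 7.56% and 34.4% and H3K4me3 of root lies at 69.9% and 69.4%.

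In root, H3K4me3 was found at most double-marked peaks and H3K27me3 at a minority. Root H3K4me3 overlapped 3345, or 67.8% (66.5 to 69.1%), against 25.8% of all H3K27me3 peaks of shoot. Root H3K27me3 overlapped 1787, or 36.2% (34.9 to 37.6%), against 29.3% of all. Sorted by both marks, 2027 (41.1%, 39.7 to 42.5%) had H3K4me3 alone in root, 1318 (26.7%, 25.5 to 28.0%) had both, 1121 (22.7%) had neither and 469 (9.5%) had H3K27me3 alone. Both marks in root were found at 1.84% of the other H3K27me3 peaks and at 10.3% of all. Of the other H3K27me3 peaks, 71.8% had neither mark in root and 23.9% had H3K27me3 alone.

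Over all lengths, H3K4me3 was kept in root about as often at sites with H3K27me3 as at sites without it. Root H3K27me3 at double-marked peaks varied with length, from 21.5% at 201 to 300 bp to 64.1% in the class of up to 200 bp. Shoot H3K4me3 peaks overlapped root H3K4me3 in 69.9% of cases (68.6 to 71.2%) with H3K27me3 and in 69.4% (69.0 to 69.8%) without, against 69.5% of all. Root H3K27me3 was at 35.4% (34.1 to 36.8%) of those with H3K27me3 and at 0.853% of those without, against 4.29% of all. By length this balance was uneven, with 51.5% (48.9 to 54.1%) against 35.9% (35 to 36.8%) in the shortest of the 4 classes and 85.3% (83.0 to 87.3%) against 89.1% (88.5 to 89.7%) in the longest. For H3K27me3, 36.2% of double-marked peaks overlapped root H3K27me3, against 25.8% (24.9 to 26.6%) of the other peaks. Within length classes the gap was smaller: 34.2% against 32.1% at 501 to 800 bp, 44.7% against 40% at 801 to 1200 bp and 40.3% against 43.1% over 1200 bp, with intervals that overlapped in each of these 3 classes. At 201 to 300 bp they did not overlap, with 21.5% (18.4 to 25.1%) against 16.2% (14.8 to 17.7%). The widest gap was in the class of up to 200 bp, with 64.1% (58.6 to 69.2%) against 20.8% (18.3 to 23.4%).

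Root H3K4me3 was more frequent where H3K27me3 was found in root. It was at 73.8% (71.7 to 75.7%) of the double-marked peaks that had H3K27me3 in root and at 64.4% (62.7 to 66.0%) of those that did not. This comparison was not made within length classes. Shoot peaks with both marks in root were longer, with a median of 744 bp. The medians were 603 bp with H3K4me3 alone, 648 bp with H3K27me3 alone and 541 bp with neither. Where both were found in root, they overlapped each other inside the shoot peak in 1249 of 1318 cases, or 94.8% (93.4 to 95.8%), by a median of 329 bp. Seen from the root list, 1858 root H3K27me3 peaks overlapped root H3K4me3, and 1292 of them, or 69.5% (67.4 to 71.6%), lay on a double-marked peak of shoot. A further 180 lay on another H3K27me3 peak of shoot and 386 (20.8%) on none. Root H3K27me3 peaks without H3K4me3 lay on a double-marked peak in 12.3% of 5017 cases (11.4 to 13.2%).

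Root peaks at these sites were shorter than the shoot peaks they overlapped, as they were elsewhere. For H3K27me3 the median was 718 bp in shoot and 455 bp in root over 1787 double-marked sites, with a median ratio of root to shoot of 0.724. Over the 2488 other sites with root H3K27me3, the medians were 498 and 396 bp, with a ratio of 0.815. For H3K4me3 the ratio was 0.732 at peaks with H3K27me3 and 0.702 at those without.

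H3K9ac was far less frequent in root, and H3K36me3 somewhat more frequent. Shoot H3K4me3 peaks without H3K27me3 shifted the same way, from 83.5% to 47.1% for H3K9ac and from 34.4% to 40% for H3K36me3. The H3K9ac list as a whole covered 60.8 Mb in shoot and 16.3 Mb in root, and the H3K36me3 list 31.7 and 29.3 Mb. Root H3K9ac overlapped 937 double-marked peaks, or 19.0% (17.9 to 20.1%), against 63.9% for shoot H3K9ac. Over all H3K27me3 peaks of shoot the root share was 8.09%. Root H3K36me3 overlapped 532, or 10.8% (9.95 to 11.7%), against 7.29% in shoot, with 4.67% over all H3K27me3 peaks. Shoot H3K4me3 peaks with H3K27me3 had root H3K9ac in 19.8% of cases (18.7 to 20.9%) and root H3K36me3 in 11.2% (10.3 to 12.1%). Those without H3K27me3 had them in 47.1% (46.6 to 47.6%) and 40% (39.5 to 40.5%), and all shoot H3K4me3 peaks in 44.4% and 37.1%. H3K4me3 peaks with H3K27me3 thus had both marks less often in root as well, except for H3K36me3 in the shortest of the 4 length classes of H3K4me3, where it was at 17.4% (15.5 to 19.4%) with H3K27me3 and 12.8% (12.2 to 13.4%) without.

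The 4 root classes differed in H3K9ac. Double-marked peaks that had H3K4me3 in root had H3K9ac in shoot in 72.7% (70.7 to 74.6%) of cases with H3K4me3 alone and 75.2% (72.8 to 77.4%) with both marks. Where root H3K4me3 was missing the shares were 41.4% (37.0 to 45.9%) with H3K27me3 alone and 44.2% (41.3 to 47.1%) with neither. The classes also differed in the extent of shoot H3K4me3, and the shares were not split by it. Its median overlap was 603 bp with both marks in root and 515 bp with H3K4me3 alone. It was 409 bp with H3K27me3 alone and 383 bp with neither. From the other side, root H3K4me3 was at 78.1% (76.7 to 79.6%) of the double-marked peaks with shoot H3K9ac and at 49.4% (47.1 to 51.8%) of those without. Root H3K27me3 differed less by shoot H3K9ac, with 37.6% (35.9 to 39.3%) and 33.8% (31.6 to 36%). Root H3K9ac was at 22.1% (20.3 to 24.0%) of peaks with H3K4me3 alone in root and at 28.5% (26.2 to 31.0%) of those with both marks, and root H3K36me3 at 9.77% (8.55 to 11.1%) and 17.4% (15.4 to 19.5%). These gaps were smaller or reversed when some peaks were left out, and their cause was not tested. Without peaks of up to 200 bp, root H3K9ac was at 21.8% (20 to 23.7%) with H3K4me3 alone and 25.3% (22.9 to 27.9%) with both. Root H3K36me3 was then at 9.52% (8.31 to 10.9%) and 9.68% (8.11 to 11.5%). Without the double-marked peaks that overlapped DNA methylation of shoot, root H3K9ac was at 22.2% (20.4 to 24%) and 22.3% (20 to 24.8%). Root H3K36me3 was then at 9.62% (8.41 to 11%) with H3K4me3 alone and 7.90% (6.48 to 9.59%) with both, the opposite order, with intervals that overlapped. Without the 147 peaks on 6 or more other lists, a choice that uses the root lists, root H3K9ac was at 22.1% and 20.7% and root H3K36me3 at 9.68% and 7.57%. Of these 147, 142 had both marks in root, 136 had root H3K9ac and 145 had root H3K36me3. Leaving them out therefore lowers the shares of the class with both marks by construction.

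**Figure D4:**
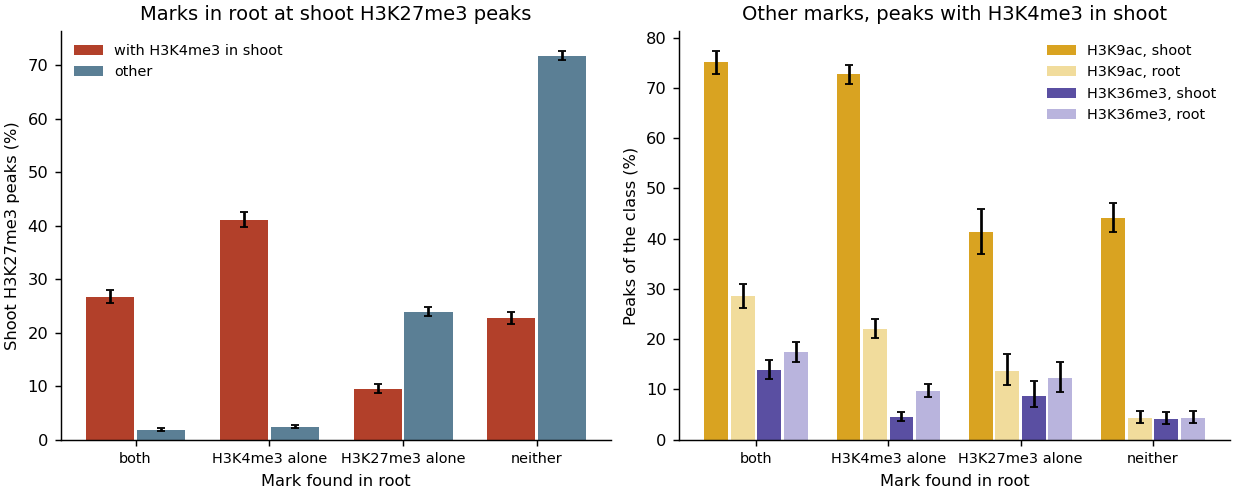
Left, percent of double-marked peaks (red) and of the other shoot H3K27me3 peaks (blue) that have both marks, H3K4me3 alone, H3K27me3 alone or neither in root. Right, percent of the double-marked peaks of each root class that overlap H3K9ac and H3K36me3 in shoot and root. Bars carry 95% Wilson intervals, and shoot H3K9ac is above 70% in both classes with root H3K4me3 and below 46% in the classes without it.

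A small set of double-marked peaks carried nearly every mark measured. Of the 8 other lists, 147 double-marked peaks, or 2.98%, overlapped 6 or more, against 22 (0.228%) of the other H3K27me3 peaks. They were short, with a median of 181 bp and quartiles of 136 and 314.5 bp, and were spread over 144 clones. DNA methylation of shoot was at 124 of the 147, and H3K36me3 at 141 in shoot and 145 in root, although few H3K4me3 peaks overlap DNA methylation. DNA methylation of root was at 8. Both H3K27me3 and H3K4me3 were present in root at 142 of them. High counts on most lists follow from the choice of 6 or more of 8, so these counts only describe the set. Over all double-marked peaks DNA methylation of shoot was at 4.68% (4.13 to 5.31%), against 4.49% of all H3K27me3 peaks. DNA methylation of root was at 1.30% (1.02 to 1.65%), against 2.53% of all. Counted over shoot H3K4me3 peaks, DNA methylation of shoot was at 4.44% of those with H3K27me3 and at 1.26% of all, and DNA methylation of root at 0.883% and 1.04%.

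This set was concentrated in the shortest class. Of the 309 double-marked peaks of up to 200 bp, 34.3% (29.2 to 39.8%) overlapped DNA methylation in shoot, 32.0% (27.1 to 37.4%) overlapped H3K36me3 in shoot and 46.0% (40.5 to 51.5%) in root. At 501 to 800 bp these shares were 1.56%, 4.75% and 7.00%. The other H3K27me3 peaks showed no such rise in DNA methylation of shoot, with 4.57% in the shortest class and 4.11% at 501 to 800 bp. Their H3K36me3 of shoot rose less, from 2.09% (1.52 to 2.86%) at 501 to 800 bp to 4.98% (3.78 to 6.55%) in the shortest class. Without peaks that overlapped DNA methylation, the double-marked peaks numbered 4704, H3K36me3 was at 4.49% of them in shoot and 7.80% in root, and H3K9ac at 63.2%. When peaks under the median length were left out of every list, H3K36me3 of shoot was at 0.978% of the double-marked and 0.969% of the other peaks. At the 360 sites with H3K36me3 in shoot, H3K27me3 was found in root in 62.2% (57.1 to 67.1%), against 34.2% (32.8 to 35.6%) of the sites without it. Without peaks that overlapped DNA methylation of shoot these shares were 46.0% (39.4 to 52.7%) of 211 sites and 33.6% (32.2 to 35%). Without the 147 peaks on 6 or more lists they were 39.3% (33 to 45.9%) and 34.1% (32.7 to 35.5%), with intervals that overlapped. The choice of the 147 used both lists compared here, with shoot H3K36me3 at 141 and root H3K27me3 at 144. Leaving them out therefore lowers the first share by construction, and nothing is concluded from that fall.

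**Figure D5:**
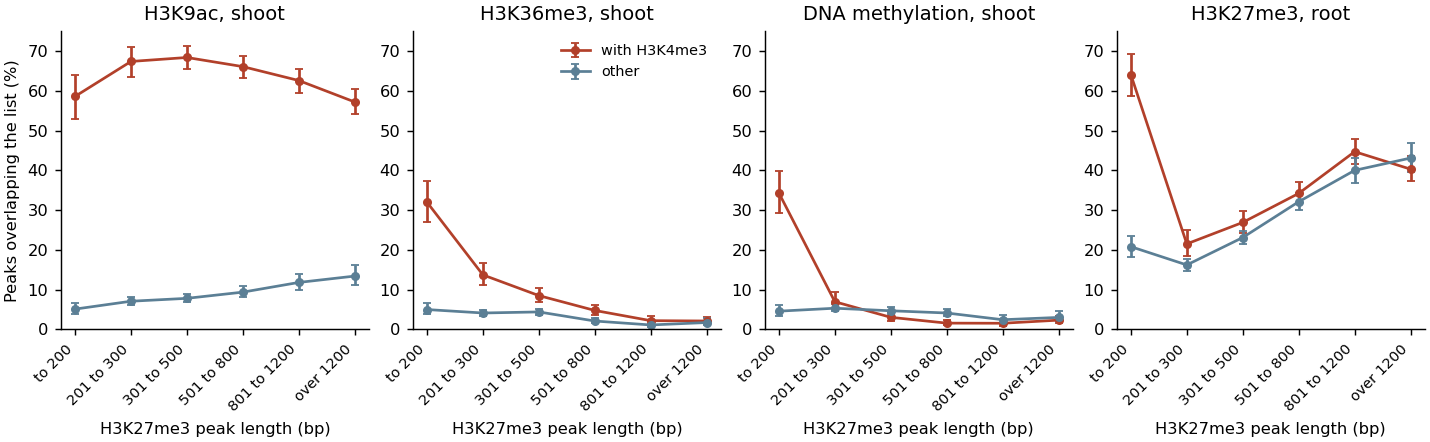
Percent of double-marked peaks (red) and of the other shoot H3K27me3 peaks (blue) that overlap H3K9ac, H3K36me3 and DNA methylation of shoot and H3K27me3 of root, by length of the H3K27me3 peak in bp, with 95% Wilson intervals. In the class of up to 200 bp, H3K36me3, DNA methylation and root H3K27me3 reach 32.0%, 34.3% and 64.1% of the double-marked peaks.

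The regions with the most bases under both marks show the range of outcomes in root. They are listed by clone, with positions counted from 1, and were chosen for their overlap. The longest overlap was on AC217885.1 at 49805 to 53120, where a 3316 bp H3K27me3 peak extended around an H3K4me3 peak of 2920 bp. In root, H3K27me3 covered 3263 bp, H3K4me3 2744 bp and H3K9ac 2091 bp of it. It thus kept nearly its full extent of both marks. On AC186798.2 at 218813 to 222010, 2558 of 3198 bp carried both marks in shoot, and root H3K27me3 and H3K4me3 covered 2937 and 1435 bp. On AC203986.2 at 35341 to 37847, 2329 of 2507 bp carried both marks, and the root cover was 490 bp of H3K27me3 and 1379 bp of H3K4me3. The latter site had no H3K9ac or H3K36me3 in either organ.

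Where H3K4me3 alone was found in root, its extent varied. The site on AC210978.2 at 191348 to 194009 had 2515 of 2662 bp under both marks in shoot and 614 bp of H3K4me3 in root. The site on AC206950.1 at 27170 to 30503 had 2504 of 3334 bp and 799 bp of root H3K4me3. Neither had H3K9ac or H3K36me3 in either organ. On AC201753.4 at 87344 to 89537, all 2194 bp lay inside H3K4me3 and H3K9ac, and in root H3K4me3 covered 1839 bp, H3K9ac 1269 bp and H3K36me3 837 bp. This site had no H3K36me3 and had H3K27me3 in shoot, and the reverse in root.

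Where H3K27me3 alone was found in root, it covered part of the shoot peak. Root bases at the named sites were counted inside the shoot peak only, so they cannot exceed its length. On AC215235.2 at 2686 to 5517, all 2832 bp lay inside an H3K4me3 peak in shoot, and in root H3K27me3 covered 1370 bp, H3K36me3 747 bp and H3K9ac 582 bp. On AC191704.3 at 65499 to 67173, all 1675 bp carried H3K4me3 and H3K9ac in shoot, and 675 bp carried H3K27me3 in root. On AC194314.2 at 133790 to 135520, 1586 of 1731 bp carried both marks in shoot and 776 bp carried H3K27me3 in root. Large double-marked peaks could also be free of all 4 histone marks in root. The site on AC206981.3 at 48209 to 51314 had 2290 of 3106 bp under both marks in shoot, with 1608 bp of H3K9ac. On AC209935.3 at 143454 to 145423 the overlap was 1923 of 1970 bp with 1572 bp of H3K9ac, and on AC194345.3 at 53319 to 55564 it was 1876 of 2246 bp with no H3K9ac. None of these 3 had any of the 4 marks in root. No H3K36me3 of shoot was found at any of the 12 sites named. All 12 were longer than 1200 bp, and in that class only 2.10% of double-marked peaks had it. Its absence therefore does not set these sites apart.

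The gene tables give no positions, and gene models were linked to double-marked peaks by the marked lengths of H3K27me3 and H3K4me3 in shoot. This gave 289 models for 203 peaks, 4.11% of the double-marked peaks, out of 4586 models that list both marks in shoot. With the lengths shifted by 10 to 40 bp, 12 to 45 models were linked (median 26.5), so some of the 289 links will be wrong. Entries not used for the link were above 0 exactly where the peak list had the mark in 87.5% of links for H3K9ac and 97.9% for H3K36me3 of shoot, and in 84.8% for H3K27me3 and 85.1% for H3K4me3 of root. The agreement that wrong links would give was not computed. H3K36me3 of shoot was at 7.29% of all double-marked peaks, so joint absence can give high agreement for it even with wrong links. Models can overlap or repeat, so they are not independent. The mRNA libraries held 21615685 (shoot) and 21406798 (root) reads on gene models. The lowest mean depth above 0 was 2.55 and 2.53 reads, so a model listed at 0 need not be silent.

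Shoot mRNA was above 0 for 82 linked models, or 28.4% (23.5 to 33.8%). Root mRNA was above 0 for 104, or 36% (30.7 to 41.7%). Among all gene models these shares were 23.8% and 23.7%. Models with H3K27me3 and no H3K4me3 in shoot were lower, with shares of 18.9% (17.2 to 20.6%) for shoot mRNA and 22.7% (20.9 to 24.6%) for root mRNA. Models with H3K4me3 and no H3K27me3 in shoot were higher, at 58.7% and 57.4%. The 4586 models with both marks listed had 28.7% (27.4 to 30%) and 35.5% (34.2 to 36.9%), close to the linked ones. Of the linked models, 58 had mRNA in both organs, 24 in shoot alone, 46 in root alone and 161 were listed at 0 in both. At linked models whose peak had no H3K27me3 in root, shoot mRNA was above 0 at 25.0% (19.6 to 31.3%) and root mRNA at 37.5% (31.2 to 44.2%). With H3K27me3 in root the shares were 37.0% (27.3 to 47.9%) and 32.1% (22.9 to 42.9%) of 81 models, and these intervals overlapped.

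Marks on the linked models were read from the authors' scaled depth per marked base, which can be compared within a mark. H3K27me3 had a median of 2.90 (2.76 to 3.04), against 2.74 (2.70 to 2.79) for all models with this mark in shoot. H3K4me3 had 1.68 (1.62 to 1.8) against 2.00 (1.99 to 2.01), and H3K9ac 0.905 (0.838 to 0.990) over the 197 linked models that had it, against 1.44 (1.43 to 1.45). H3K4me3 and H3K9ac were therefore lower per base at linked models, while the intervals for H3K27me3 overlapped.

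The linked models with the most mRNA are given with both organs, since they were chosen for it. Gene names are not used here, because the identifiers matched no name table. Zm000704 had 33258 reads in shoot and 68 in root, on a 502 bp peak that lay inside H3K4me3 and kept both marks in root. Its H3K27me3 was 501 bp in shoot and 506 bp in root, whereas H3K4me3 went from 1457 to 608 bp and H3K9ac from 1714 bp to none. High mRNA in shoot thus stood beside listed H3K27me3. Zm032457 had 20433 reads in shoot and 224 in root, and its H3K27me3 spanned 1195 bp and 322 bp. Zm160052 had 15462 reads in shoot and was listed at 0 in root, and its H3K27me3 was 1307 bp in shoot with none listed for the model in root, although the peak list has root H3K27me3 at this site.

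On the root side, Zm019296 had 10434 reads in root and 530 in shoot. Its H3K27me3 spanned 855 bp in shoot and root had none, while its H3K4me3 grew from 736 bp in shoot to 1091 bp in root. Zm091972 had 2442 reads in root and 243 in shoot, and 551 bp of H3K27me3 in shoot against none in root. Its H3K4me3 went from 1357 bp in shoot to 1215 bp in root. H3K9ac was shorter in root at both models, from 1753 to 934 bp for Zm019296 and from 1492 to 1086 bp for Zm091972. By the model entries, both had more mRNA in the organ without H3K27me3, whereas Zm160052 had more in the organ with it. The peak linked to Zm160052 has H3K27me3 in both organs, however, so its link is doubtful and this contrast with it. Zm165856 had the most reads in root, 18444 against 5388 in shoot, but its root entries went against those of the linked peak, with H3K4me3 where the peak list has H3K27me3 alone, so this link is doubtful.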

How the data were processed

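The data were peak lists of 10 chromatin libraries and a gene table for each organ, with 1 library per assay and organ and groups taken from the sample titles. Peak caller, aligner, thresholds and genome build: not given in the sources used here. Deposited lists hold start and end only. The deposited depth columns are signal (summed base coverage), which for marks carries the authors' scaling, of unstated basis, and for mRNA is a multiple of the read length of 35 bases. Overlap was counted from 1 bp on the same clone, against merged intervals for bases covered (Python 3.11.15, numpy 2.4.6, pandas 2.3.3, scipy 1.17.1), and the overlap count was tested on simulated data. A gene model was linked to a peak when its H3K4me3 length exceeded the peak length by 1 bp, its H3K27me3 length differed by -3, -1 or 1 bp, and a single peak fitted. These differences were found in the data. The other H3K27me3 peaks could not be linked this way, so models listing H3K27me3 without H3K4me3 replace them. Named regions are the 5 with the most overlapped bases and the 3 with the most in each root class, given at least 50% cover, and named gene models the 3 with the most reads per organ. Small RNA was not analysed here. Regions, lists and tests were chosen with earlier results of these data known.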

Additional observations from a re-analysis of the deposited data

How the results depend on the processing

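For H3K9ac, H3K36me3 of both organs and H3K27me3 and H3K4me3 of root, double-marked peaks had the higher share in 40 of 40 comparisons under the alternatives. The alternatives reuse the same peaks. H3K36me3 of shoot was nearly equal without peaks under the median length of their list, at 0.978% and 0.969%. Within the length class over 1200 bp, root H3K27me3 was lower at double-marked peaks, at 40.3% against 43.1%, with intervals that overlapped. For DNA methylation of shoot, at 4.68% of double-marked and 4.39% of other peaks, the order turned: without peaks under the median length of their list it was at 0.805% of double-marked and 2.50% of other peaks, and without peaks of up to 200 bp at 2.70% and 4.37%. Of 79 values under alternatives, 31 moved by less than the interval and 48 by more. For the number of double-marked peaks, which has no interval, the limit was a 1.5-fold change. With at least 50% of the H3K27me3 peak under H3K4me3, median length and overlap were 573 and 509 bp, and the shares with H3K9ac and H3K36me3 of shoot, H3K4me3, H3K9ac and H3K36me3 of root and both marks in root were 67.1, 8.07, 71.7, 20.6, 11.7 and 28.4%. Without peaks under the median length of their list, 1739 double-marked peaks had medians of 976 and 865 bp. Their shares were 49.4% (H3K9ac) and 0.978% (H3K36me3) in shoot, and in root 32.7% (H3K27me3), 58.9% (H3K4me3), 11.5% (H3K9ac), 3.22% (H3K36me3) and 20.5% (both marks). With the other mark over at least 50% of the peak, the shoot shares were 60.1% (H3K9ac), 6.48% (H3K36me3) and 3.44% (DNA methylation). The root shares were then 25.6% (H3K27me3), 50.2% (H3K4me3), 13.8% (H3K9ac), 9.16% (H3K36me3) and 15.5% (both marks). On the bases shared by both marks, root H3K27me3 was at 34.7%. On clones with a root H3K27me3 peak the root shares were 58.2% (H3K27me3), 42.9% (both marks), 20.6% (H3K9ac) and 12.2% (H3K36me3). A pair of alternatives was chosen after seeing the data. Without peaks on shoot DNA methylation, the medians were 639 and 506 bp, H3K36me3 of shoot was at 4.49%, and in root H3K27me3 was at 34.1%, H3K9ac at 17.2%, H3K36me3 at 7.80% and both marks at 24.8%. Without peaks of up to 200 bp these values were 663 and 518 bp, 5.64%, 34.3%, 17.9%, 8.43% and 25.0%. With mRNA counted from the median of values above 0, 13.1% of linked models passed in shoot and 13.8% in root. Apart from settings that keep fewer peaks or ask for more overlap by construction, the cause was not tested. No paired analysis was possible because each assay had 1 library per organ. The reads behind the chromatin lists are unknown, so depth limits could not be given.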

Other observations

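Double-marked peaks were spread over 3665 of the 7507 clones that had an H3K27me3 peak in shoot. A single double-marked peak was found on 2751 clones, 2 on 676 and 3 or more on 238, with at most 10 on a clone. Neighbouring double-marked peaks of a clone were a median of 23.0 kb apart over 1270 pairs, and 300 pairs lay within 1000 bp. Of the double-marked peaks, 582 (11.8%) overlapped none of the 8 other lists and 1528 (31.0%) overlapped 2 of them, whereas 5849 (60.6%) of the other H3K27me3 peaks overlapped none.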
